A study of Mus musculus with 10 samples.

Results

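Open chromatin was examined at 10 mouse genes of the feedback on signalling through RAS and the mitogen-activated protein kinases (MAPK): the phosphatase genes Dusp4, Dusp5 and Dusp6, the RAS and RAF inhibitor genes Spry1, Spry2, Spry4, Spred1 and Spred2, and the ETS transcription factor genes Etv4 and Etv5. Peaks of 8 ATAC-seq libraries were merged into 103446 regions wherever they shared at least 1 bp, and a region belonged to one of these genes when its midpoint lay in the gene or when the gene was the nearest protein-coding gene within 100 kb. This rule, which uses only position, gave 128 regions. Spred2 held 28, Dusp5 24, Dusp6 and Spred1 15 each, Etv5 12, Spry2 11, Dusp4 9, Spry1 7, Etv4 4 and Spry4 3.

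ATAC-seq marks accessible DNA by letting the Tn5 transposase insert adapters into it. The libraries were made from 100000 lineage-negative bone marrow cells each, a fraction rich in haematopoietic stem and progenitor cells (HSPCs), from C57BL/6 mice of 4 genotypes with 2 libraries per genotype. Double mutant cells (DM) were Npm1flox-cA/+;Flt3ITD/+;Mx1-Cre+, Npm1c cells were Npm1flox-cA/+;Mx1-Cre+, Flt3-ITD cells were Flt3ITD/+, and the rest were wild type (WT). Npm1c is a leukaemia-associated frameshift allele of the nucleolar protein nucleophosmin, and Flt3-ITD is an internal tandem duplication that makes the receptor tyrosine kinase FLT3 constitutively active. Mx1-Cre is a recombinase under an interferon-inducible promoter that acts in blood cells and in other tissues. The labels name it for the DM and Npm1c libraries only, so the Npm1c allele and Mx1-Cre cannot be told apart. The replicates are called biological without naming the animals, and p-values therefore measure only the spread between these libraries.

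Receptor tyrosine kinases such as FLT3 load RAS with GTP, and RAS passes the signal through RAF and MEK kinases to ERK. ERK activity in turn induces genes that restrain it. Dual-specificity phosphatases remove the activating phosphates from ERK, Sprouty and SPRED proteins act higher up at the level of RAS and RAF, and the ETS factors ETV4 and ETV5 are ERK-responsive regulators of transcription. Transcripts of several of these genes are widely used as readouts of ERK pathway output. RNA was not measured in these libraries.

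Promoter windows from RefSeq (GRCm38.p6, 250 bases before to 50 after an annotated start) were found for Dusp5, Dusp6, Spry1, Spry2, Spred1, Spred2 and Etv5, with a second window for Etv5. The windows of the genes on which the results below turn are shown 5′ to 3′, with capitals marking matched motifs on either strand. Dusp5 lies at chr19:53528895-53529194 on the plus strand, Dusp6 at chr10:99262981-99263280 (plus), Spred2 at chr11:19924192-19924491 (plus) and Spry2 at chr14:105896770-105897069 (minus). The upstream window of Etv5 lies at chr16:22439521-22439820 and its downstream window at chr16:22438319-22438618, both on the minus strand.
Dusp5: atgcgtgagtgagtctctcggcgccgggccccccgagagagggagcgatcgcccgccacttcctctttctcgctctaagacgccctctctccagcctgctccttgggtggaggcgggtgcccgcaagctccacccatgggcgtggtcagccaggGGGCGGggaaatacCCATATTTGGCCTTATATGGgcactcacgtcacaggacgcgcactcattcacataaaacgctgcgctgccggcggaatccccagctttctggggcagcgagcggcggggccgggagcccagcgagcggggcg
Dusp6: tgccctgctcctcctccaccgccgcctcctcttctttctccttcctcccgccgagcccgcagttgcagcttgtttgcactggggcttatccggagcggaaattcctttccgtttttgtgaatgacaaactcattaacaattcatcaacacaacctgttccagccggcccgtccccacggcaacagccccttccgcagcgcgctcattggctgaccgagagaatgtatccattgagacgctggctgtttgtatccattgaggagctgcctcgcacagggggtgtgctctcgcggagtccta
Spred2: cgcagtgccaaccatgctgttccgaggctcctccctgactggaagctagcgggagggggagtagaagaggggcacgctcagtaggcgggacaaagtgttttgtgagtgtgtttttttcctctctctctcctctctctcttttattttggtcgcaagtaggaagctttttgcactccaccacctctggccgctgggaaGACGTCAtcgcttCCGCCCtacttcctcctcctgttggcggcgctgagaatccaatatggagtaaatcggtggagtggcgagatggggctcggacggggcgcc
Spry2: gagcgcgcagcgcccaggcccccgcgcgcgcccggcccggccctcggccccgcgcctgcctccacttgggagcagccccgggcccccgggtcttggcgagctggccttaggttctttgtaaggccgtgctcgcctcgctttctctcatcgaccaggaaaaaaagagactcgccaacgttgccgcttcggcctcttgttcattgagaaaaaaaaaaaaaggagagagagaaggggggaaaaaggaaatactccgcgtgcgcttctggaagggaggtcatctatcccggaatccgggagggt
Etv5 upstream start: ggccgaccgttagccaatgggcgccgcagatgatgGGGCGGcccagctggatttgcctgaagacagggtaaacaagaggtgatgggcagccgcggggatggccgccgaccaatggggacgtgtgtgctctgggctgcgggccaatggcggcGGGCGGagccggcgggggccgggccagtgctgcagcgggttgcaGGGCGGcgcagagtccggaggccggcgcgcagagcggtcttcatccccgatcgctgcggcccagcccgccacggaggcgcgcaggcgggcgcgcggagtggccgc
Etv5 downstream start: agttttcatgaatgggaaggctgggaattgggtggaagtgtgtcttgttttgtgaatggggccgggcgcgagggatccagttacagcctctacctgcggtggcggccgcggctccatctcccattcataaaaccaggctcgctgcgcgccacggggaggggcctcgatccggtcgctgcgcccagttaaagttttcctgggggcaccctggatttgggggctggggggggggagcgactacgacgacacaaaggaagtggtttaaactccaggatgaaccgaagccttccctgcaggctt

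The motifs searched on both strands were ETS (CCGGAAG), AP-1 (TGANTCA), CRE (TGACGTC), RUNX (TGTGGT), an erythroid factor motif (AGATAAG) and the GC box (GGGCGG), and the CArG box, the binding motif of serum response factor, was added after the sequences had been seen. Dusp5 had 2 adjacent CArG boxes and 1 GC box. A CArG box occurred in 1.63% and a GC box in 35.7% of the 32851 windows of the table. Spred2 had 1 match to the CRE, a motif in 3.21% of windows, and 1 GC box. The upstream Etv5 window had 3 GC boxes, Spred1 had 3 and Spry1 had 1. The Dusp6, Spry2 and downstream Etv5 windows held none of these letters, and the ETS, AP-1, RUNX and erythroid motifs, found in 8.86%, 7.81%, 16.8% and 3.04% of windows, were in none of the 8 windows. These are matches of letters and not measured binding sites.

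The peak lists differed in length, with 55624 and 63133 peaks in DM, 62782 and 68676 in Npm1c, 43825 and 51733 in Flt3-ITD, against 80916 and 63908 in WT. The lists hold positions only, so a region is either called or not called in a library, and the single graded value is the number of bases its peaks cover. Read depth is unknown, and whether a list is short through shallow sequencing or through less accessible DNA cannot be told apart. In a mixed cell fraction fewer cells of a type and less accessibility per cell cannot be told apart. Of 8 HSPC markers, 7 had a region at a gene end that was called in all 8 libraries (Erg had none). The 8 HSPC markers together had 87 and 85 called regions in DM, 102 and 109 in Npm1c, 62 and 71 in Flt3-ITD, against 118 and 85 in WT. Monocyte and dendritic cell markers (Irf8, Csf1r, Cd74 and Ciita together) had 50 and 69 called regions in DM, 8 and 10 in Npm1c, 21 and 21 in Flt3-ITD, against 21 and 14 in WT. Of B cell genes, Pax5 had 5 and 12 in DM, 1 and 1 in Npm1c, 4 and 4 in Flt3-ITD, against 2 and 1 in WT. Ms4a1 had 2 and 2 in DM, 0 and 0 in Npm1c, 1 and 1 in Flt3-ITD, against 0 and 0 in WT, and Cd79a had no region. T cell markers (Cd3e, Cd3g, Cd4 and Cd8a) had 2 and 5 in DM, none in Npm1c or Flt3-ITD, against 2 and 0 in WT. Mature neutrophil markers (Ly6g, Camp, Ltf and Mmp9) had 8 and 9 in DM, 5 and 6 in Npm1c, 6 and 6 in Flt3-ITD, against 12 and 4 in WT. The monocyte and dendritic cell sum, Pax5 and Ms4a1 were thus highest in DM. Of erythroid genes, Hbb-bt, a globin gene with near-identical copies, had 1 and 1 in DM, 4 and 5 in Npm1c, 0 and 1 in Flt3-ITD, against 4 and 3 in WT, so every library with the Flt3-ITD allele lay below every library without it. Alas2 had 1 and 0 in DM and 2 in each other library, and Epor 1 in each library. These differences move with the genotypes and the Flt3-ITD allele compared below, and their part in the results was not tested.

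Every feedback gene was open at an end of the gene in all genotypes. Each of the 10 genes had 1 region overlapping a gene end, and all 10 were called in all 8 libraries, against 83.0% of the 10917 such regions of the genome. A region called in all 8 libraries cannot be gained or lost by the call rule below, so the calls that differed lay elsewhere. Of the 128 regions, 45 lay inside (35.2%, against 51.6% of all regions) and 73 outside the genes (57.0%, against 32.6%). There were 34 regions (26.6%) called in all 8 libraries and 25 (19.5%) called in a single one, against 25.3% and 18.5% of all regions.

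Between 44 and 95 of the 128 regions were called per library. DM libraries called 71 and 83, Npm1c libraries 67 and 76, Flt3-ITD libraries 44 and 54, while WT libraries called 95 and 64. That is 55.5% and 64.8% of the members in DM, 52.3% and 59.4% in Npm1c, 34.4% and 42.2% in Flt3-ITD, against 74.2% and 50% in WT. Over all regions the same libraries called 50.4% and 58.0% in DM, 57.0% and 63.1% in Npm1c, 38.7% and 46.0% in Flt3-ITD, against 75.4% and 58.2% in WT. The member share was above the share of all regions in both DM libraries and below it in the other 6, and these differences were not tested. The member regions held 0.155% and 0.152% of the bases under peaks in DM, 0.136% and 0.135% in Npm1c, 0.136% and 0.131% in Flt3-ITD, against 0.135% and 0.132% in WT. Both DM libraries thus stood above the other 6 in the share of open bases at these genes, and WT replicate 1, the longest list, stood highest in the plain number of calls.

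**Figure D1:**
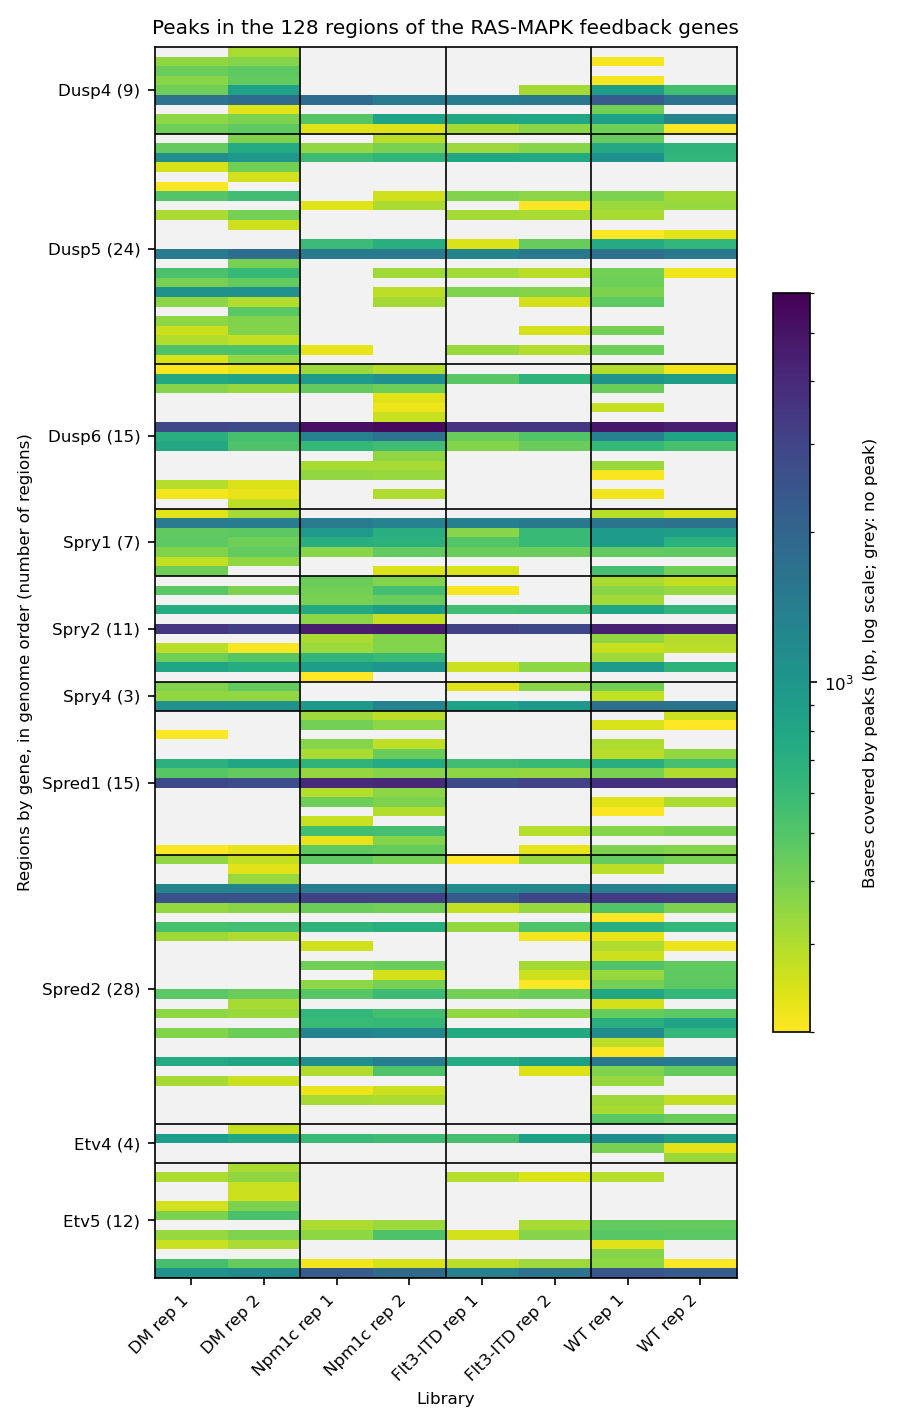
Bases covered by peaks (colour, log scale, grey for no peak) in each of the 128 regions, in rows by gene and genome order, for the 8 libraries in columns. The widest regions, at the gene ends, were called everywhere, while Dusp4, Dusp5 and Etv5 held rows filled in both DM libraries and Spred1, Spred2 and Spry2 rows empty in them.

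A region was counted as gained in a genotype when both of its libraries called the region and neither library of the other genotype did, and as lost in the opposite case. With 2 libraries against 2, no exact two-sided test can reach p = 0.05, so these counts carry no test and are read beside the same share over all regions. Of the 128 member regions, 55 (43.0%) were gained or lost in at least 1 of 5 comparisons, against 44.1% of all regions. The comparisons share libraries and are therefore not independent of each other.

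DM cells showed 9 gained regions against WT, 7.03% of the member regions beside a genome-wide share of 6.93%. They lay at Dusp5 (4), Etv5 (2), Dusp4 (1), Dusp6 (1) and Spry1 (1), and each was also absent from both Npm1c and both Flt3-ITD libraries. This pattern, a call in both DM libraries and in no other, was held by 7.03% of member regions and 5.13% of all regions. Another 19 regions (14.8%, genome-wide 20.9%) were lost, at Spred2 (8), Spred1 (4), Dusp5 (3), Spry2 (2), Etv4 (1) and Etv5 (1). Spry2, Spred1 and Spred2 had no gain in DM against WT, and Dusp4, Dusp6, Spry1 and Spry4 no loss. Leaving out a library loosens the rule, so a count can then only stay or rise. The gained count was 20 (15.6%, genome-wide 14.1%) without DM replicate 1 and 26 (20.3%, genome-wide 15.7%) without WT replicate 1. Leaving out WT replicate 2 gave 31 lost regions (24.2%, genome-wide 29.4%). The lost count was 6 of 93 regions (6.45%, genome-wide 15.4%) when every list was cut to its 43794 widest peaks, which is the number of peaks used from the shortest list.

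Against Npm1c, DM cells showed 22 gained regions (17.2%, genome-wide 12.6%) and 23 lost regions (17.97%, genome-wide 19.3%). The gains lay at Dusp5 (7), Dusp4 (4), Etv5 (4), Spry1, Spry4 and Spred2 (2 each) and Dusp6 (1). The losses lay at Spred1 (8), Spred2 (6), Spry2 (4), Dusp5 (2), Dusp6 (2) and Etv5 (1). Dusp4, Dusp5 and Etv5, with 45 regions between them, thus had 15 of the gains and 3 of the losses, while Spred1, Spred2 and Spry2, with 54 regions, had 2 of the gains and 18 of the losses. These sets of 3 genes were formed after their counts had been seen. The gained count was 36 (28.1%, genome-wide 20.8%) without DM replicate 1. With lists of equal length, 17 of 93 were gained (18.3%, genome-wide 16.5%) and 9 of 93 lost (9.68%, genome-wide 18.2%).

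Against Flt3-ITD, DM cells showed 21 gained regions (16.4%, genome-wide 10.6%) and 1 lost region (0.781%, genome-wide 3.44%). The gains lay at Dusp5 (5), Dusp6 (4), Dusp4 and Etv5 (3 each), Spry1 and Spry2 (2 each), and Spry4 and Spred2 (1 each), and the loss at Dusp5. The gained count was 36 (28.1%, genome-wide 19.9%) without DM replicate 1 and 9 of 93 (9.68%, genome-wide 6.82%) with lists of equal length. The lost count was 8 (6.25%, genome-wide 8.26%) without Flt3-ITD replicate 1.

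Flt3-ITD cells had 0 gained member regions against WT (genome-wide 0.852%) and 14 lost ones (10.9%, genome-wide 16.2%), at Spred2 (4), Spry2 (3), Spred1 (3) and Dusp5, Dusp6, Spry1 and Etv4 (1 each). This one-sided count was not kept with lists of equal length, which gave 5 gained (5.38%, genome-wide 5.85%) and 3 lost regions (3.23%, genome-wide 6.49%) of 93. Without WT replicate 1, 5 regions were gained (3.91%, genome-wide 4.62%), and without WT replicate 2, 39 were lost (30.5%, genome-wide 29.7%). Without Flt3-ITD replicate 2, 23 were lost (17.97%, genome-wide 23.1%). Npm1c cells had 4 gained regions against WT (3.13%, genome-wide 2.71%), at Spred1 (2), Spry2 and Spred2, and 5 lost ones (3.91%, genome-wide 6.26%), at Dusp4, Dusp5, Spry1, Spred2 and Etv4. Leaving out Npm1c replicate 1 gave 7 gained regions (5.47%, genome-wide 6.19%) and leaving out WT replicate 1 gave 10 (7.81%, genome-wide 7.49%). Leaving out Npm1c replicate 2 gave 9 lost regions (7.03%, genome-wide 9.36%) and leaving out WT replicate 2 gave 25 (19.5%, genome-wide 17.3%).

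**Figure D2:**
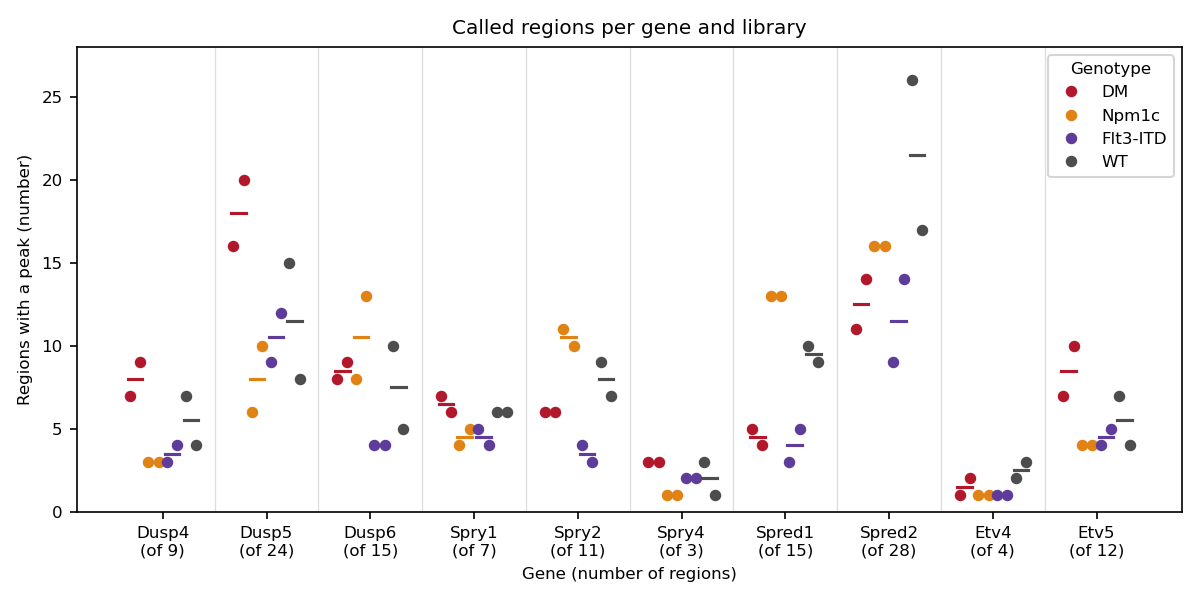
Number of regions with a peak (vertical axis) at each of the 10 genes, 1 point per library and a bar at the mean of the 2 libraries of a genotype. At Dusp5, DM libraries called 16 and 20 of 24 regions and WT libraries 15 and 8, while at Spred1 DM libraries called 5 and 4 of 15 regions and WT libraries 10 and 9.

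The largest group of DM regions lay around Dusp5 (chr19:53529145-53541809), which encodes a nuclear phosphatase selective for ERK. Its called regions numbered 16 and 20 in DM, 6 and 10 in Npm1c, 9 and 12 in Flt3-ITD, against 15 and 8 in WT. Both DM libraries were above all others, though WT replicate 1 fell short of DM replicate 1 by a single region. The share of all genes that set DM apart in this way was not counted. Only the DM libraries called chr19:53467323-53467737 upstream of the gene, with 247 and 415 bases covered, and chr19:53547550-53547976, chr19:53564255-53564551 and chr19:53567891-53568246 beyond its 3′ end, with 246 to 382 bases covered. Inside the gene, chr19:53536155-53537221 was covered over 1048 and 1067 bases in DM, 0 and 282 in Npm1c, 387 and 374 in Flt3-ITD, against 389 and 0 in WT. The neighbouring region chr19:53535460-53535933 was called in both DM libraries (401 and 450 bases), in WT replicate 1 (425 bases) and nowhere else.

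Not all of the Dusp5 locus was more open in DM. The region chr19:53521048-53521809, a short way upstream of the start, had no peak in either DM library, 587 and 699 covered bases in Npm1c, 238 and 440 in Flt3-ITD, against 740 and 630 in WT. It was the only member region called in all libraries but those of DM (0.781%, genome-wide 2.78%). Farther upstream, chr19:53492589-53492969 was called in neither DM library, in both Npm1c and both WT libraries and in Flt3-ITD replicate 2. The small region chr19:53519607-53519837 was called in the WT libraries alone. Gained against Npm1c but not against the rest were chr19:53500640-53501057 (308 and 409 bases in DM, 315 and 306 in Flt3-ITD, 311 in WT replicate 1) and chr19:53557187-53557610.

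**Figure D3:**
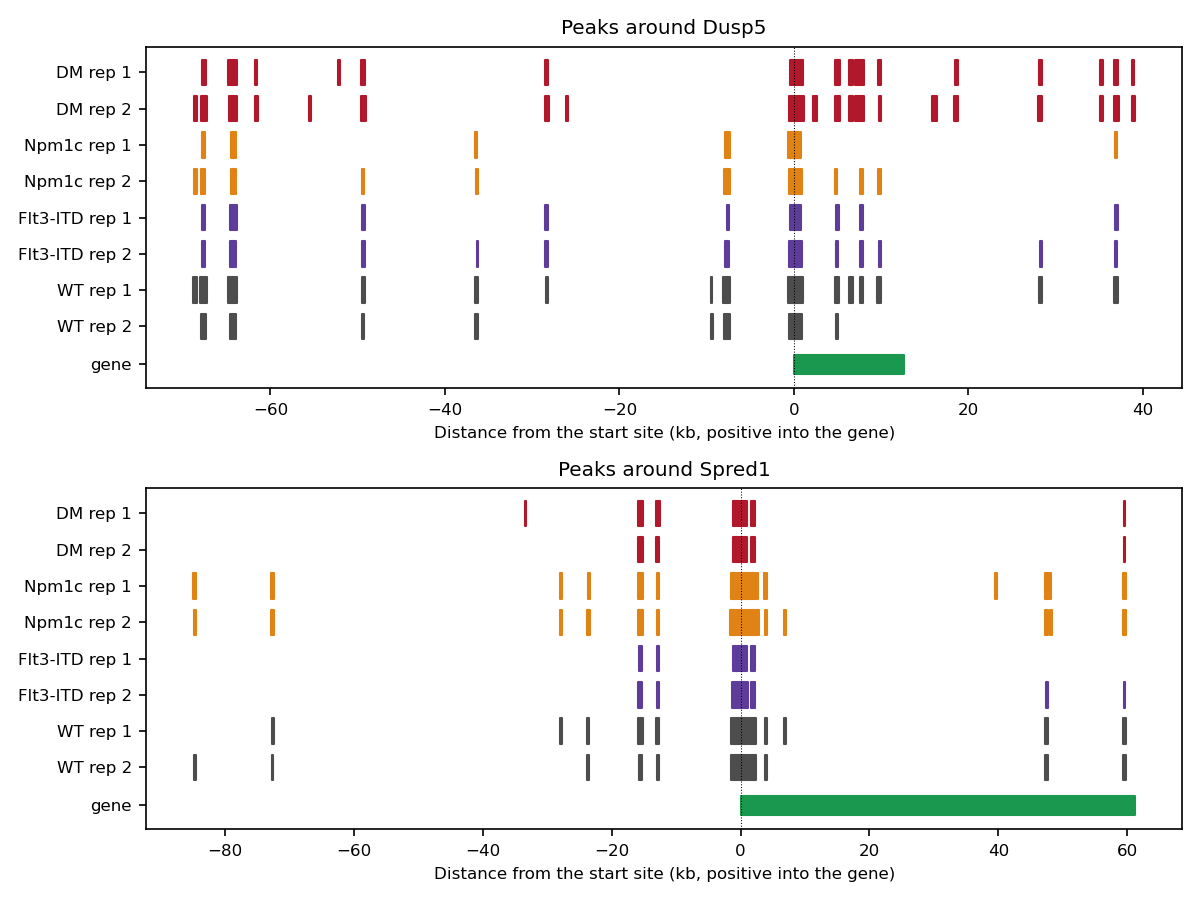
Peaks of each library (coloured bars, 1 row per library) around Dusp5 (top) and Spred1 (bottom), by distance from the annotated start in kb, with the gene in green. Around Dusp5 the DM rows hold most peaks and lack the one just upstream of the start, and around Spred1 the DM and Flt3-ITD rows keep few peaks away from the start.

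Dusp4 (chr8:34807610-34819894), the gene of a nuclear phosphatase of ERK and related kinases, had 9 regions, of which 7 and 9 were called in DM, 3 and 3 in Npm1c, 3 and 4 in Flt3-ITD, against 7 and 4 in WT. The DM and WT counts touched, and both single mutants lay below DM. The share of all genes with this order was not counted. Both DM libraries called chr8:34764842-34765306 (437 and 465 bases), which no other library called. Next to it, chr8:34765689-34766139 was covered over 365 and 451 bases in DM and 209 in WT replicate 1, and chr8:34740319-34740687 over 352 and 369 bases in DM and 209 in WT replicate 1. The region chr8:34804770-34805679, close to the gene, was covered over 424 and 859 bases in DM, 0 and 0 in Npm1c, 0 and 317 in Flt3-ITD, against 908 and 557 in WT. Both Npm1c libraries and Flt3-ITD replicate 1 lacked it.

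Dusp6 (chr10:99263231-99267489) encodes a cytoplasmic phosphatase selective for ERK and is a classical ERK-induced gene. It had 15 regions, with 8 and 9 called in DM, 8 and 13 in Npm1c, 4 and 4 in Flt3-ITD, against 10 and 5 in WT. The Flt3-ITD libraries were lowest and did not overlap any other genotype. They also called the smallest shares of all regions, 38.7% and 46.0%. The region chr10:99328598-99328889 was called in DM alone (292 and 240 bases), while chr10:99302094-99302442 and chr10:99311962-99312361 were called in neither DM library, in both Npm1c libraries and in WT replicate 1. The region chr10:99232546-99232882 had 208 and 221 covered bases in DM, 333 and 291 in Npm1c, none in Flt3-ITD, against 295 and 214 in WT. Both chr10:99247112-99247606 and chr10:99353915-99354219 were also called in DM and not in Flt3-ITD.

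The Dusp6 start differed in the number of covered bases. Peaks covered 2893 and 2765 bases of chr10:99260854-99266394 in DM, 5260 and 5479 in Npm1c, 3528 and 3484 in Flt3-ITD, against 4892 and 4520 in WT, so no 2 genotypes overlapped. The share of all regions that separate the genotypes in this way was not counted. Most of the difference lay on the gene side. Peaks reached over 790 and 648 bases downstream of the start in DM, 2928 and 3164 in Npm1c, 1441 and 1367 in Flt3-ITD, against 2515 and 2374 in WT. Upstream, all 8 libraries were covered over 2087 to 2377 bases, and the promoter window shown above lay under a peak in full in every library.

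Covered widths were compared over the 26169 regions called in all 8 libraries with limma on log2 covered bases, centred on each library's median, with Benjamini-Hochberg adjustment over all of these regions. The Dusp6 start was narrower in DM than in Npm1c by a log2 difference of -0.80 (SE 0.13, adjusted p = 0.00156), and narrower across the 4 libraries with the Flt3-ITD allele than across the 4 without it (-0.38, SE 0.09, adjusted p = 0.009). Once widths were centred, the allele value averaged unlike differences, since Flt3-ITD set against WT gave 0.04 (SE 0.13, adjusted p = 0.856). The limma test of DM minus Npm1c less Flt3-ITD minus WT passed (-0.83, SE 0.18, adjusted p = 0.0273), but under only 4 of the 12 settings named next. Without centring, Flt3-ITD was narrower than WT (-0.42, adjusted p = 0.0257) and that test did not pass (-0.50, adjusted p = 0.107). The differences of DM from Npm1c and of the allele passed under all 12 alternative settings tried, which were 4 other ways of fitting and the omission of each library. The difference of DM from WT (-0.41, SE 0.13, adjusted p = 0.0336) passed under 7 of 12. It no longer passed without DM replicate 1 (-0.48), DM replicate 2 (-0.34), Npm1c replicate 1 or 2 (-0.41 each) or WT replicate 2 (-0.35). The region just past the 3′ end of Dusp6, chr10:99268137-99269768, was covered over 709 and 539 bases in DM, 1335 and 1632 in Npm1c, 435 and 505 in Flt3-ITD, against 1324 and 836 in WT. It was narrower in DM than in Npm1c (-1.13, SE 0.20, adjusted p = 0.00235) and with than without the Flt3-ITD allele (-0.92, SE 0.14, adjusted p = 0.00125), both under all 12 settings.

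Distal Dusp5 and Dusp4 regions that every library called differed in width as well. At Dusp5, chr19:53464221-53465346 was covered over 1126 and 983 bases in DM, 583 and 650 in Npm1c, 798 and 765 in Flt3-ITD, against 1076 and 638 in WT. It was wider in DM than in Npm1c (0.90, SE 0.19, adjusted p = 0.00571) under all 12 settings. Its difference from WT (0.67, adjusted p = 0.0243) passed under 8 of 12 and not without DM replicate 1 (0.54), WT replicate 2 (0.41) or centring (0.34), nor when regions called in at least 6 libraries were fitted (0.62). Inside Dusp4, chr8:34817554-34818060 was wider in DM than in Npm1c (1.02, SE 0.23, adjusted p = 0.00842), with 422 and 463 bases in DM, 237 and 240 in Npm1c, 317 and 365 in Flt3-ITD, against 423 and 200 in WT. That call ended only when widths were not centred (0.89). The nearby chr8:34815188-34816563 ran the other way, with 355 and 389 bases in DM, 498 and 849 in Npm1c, 763 and 780 in Flt3-ITD, against 856 and 1269 in WT. It was narrower in DM than in WT (-1.16, SE 0.28, adjusted p = 0.0134), except without DM replicate 1 (-1.13) or WT replicate 2 (-0.76). At the Dusp5 start and at the open gene end of Dusp4 the libraries of the genotypes overlapped, with 1484 and 1770 bases in DM and 1714 and 1543 in WT at Dusp5.

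**Figure D4:**
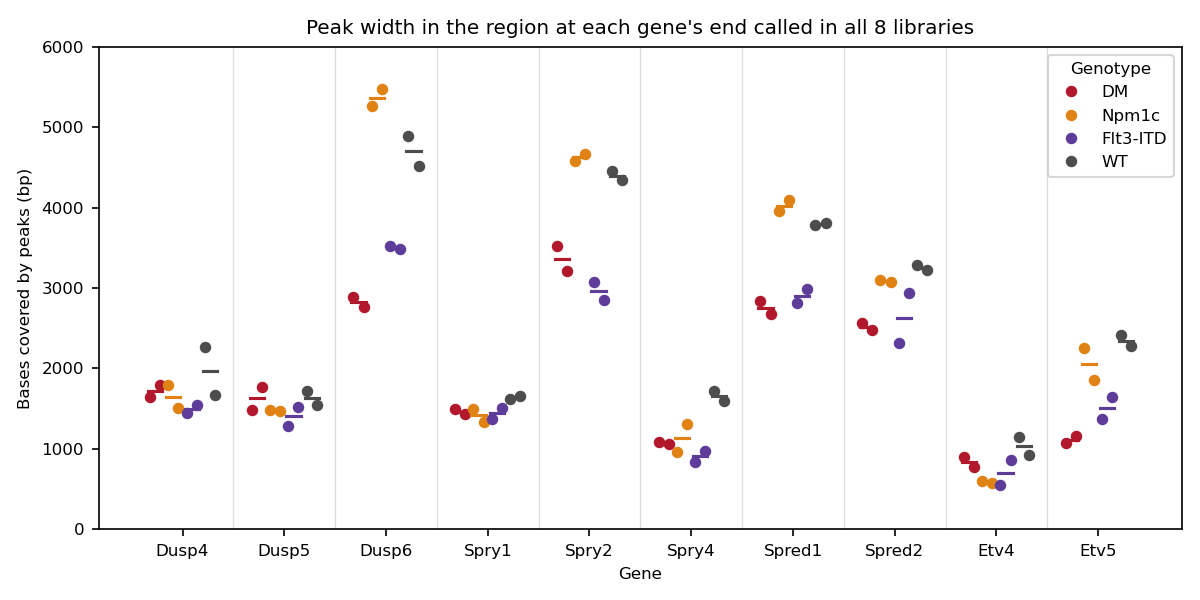
Bases covered by peaks (vertical axis, bp) in the region at a gene end that every library called, 1 point per library and a bar at the mean of a genotype. These are bases as listed, not set against the library median: at Dusp6, Spry2, Spred1, Spred2 and Etv5 all 4 libraries with the Flt3-ITD allele lay below all 4 without it. The library medians of log2 covered bases over all 26169 shared regions were separated alike, at 9.13 to 9.40 with the allele and 9.45 to 9.80 without it. Relative to the median the allele difference passed at Dusp6 and Etv5 and not at Spry2, Spred1 or Spred2.

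Among the RAS and RAF inhibitors, SPRED1 recruits the RAS GTPase-activating protein neurofibromin to the membrane. Spred1 (chr2:117121071-117182279) had 15 regions, with 5 and 4 called in DM, 13 and 13 in Npm1c, 3 and 5 in Flt3-ITD, against 10 and 9 in WT. Libraries with the Flt3-ITD allele averaged 4.25 called regions and those without it 11.25, and the 2 sets did not overlap. For this allele, 21.5% of all genes tested had an unadjusted exact permutation p under 0.05. The regions chr2:117048243-117048657, chr2:117097209-117097651 and chr2:117124791-117125216 were called in none of the 4 libraries with the allele and in all 4 without it. The last of these lies inside the gene and was covered over 423 and 389 bases in Npm1c and 237 and 303 in WT. Npm1c libraries alone called chr2:117123556-117123998 and chr2:117169032-117169405. Both DM libraries also lacked chr2:117168305-117168906, which had 559 and 546 bases in Npm1c, 0 and 294 in Flt3-ITD, against 372 and 397 in WT. Against Npm1c, DM further lacked chr2:117036179-117036525 and chr2:117092987-117093386.

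At the Spred1 start, chr2:117119394-117123517, peaks covered 2838 and 2677 bases in DM, 3954 and 4100 in Npm1c, 2808 and 2990 in Flt3-ITD, against 3783 and 3811 in WT. The region was narrower in DM than in Npm1c (-0.42, SE 0.13, adjusted p = 0.0292), but under 7 of 12 settings only, and the Flt3-ITD allele difference did not pass (-0.17, adjusted p = 0.151). It did not pass after quantile normalization (-0.09), or without DM replicate 1 (-0.50), DM replicate 2 (-0.34), Npm1c replicate 1 (-0.41) or Npm1c replicate 2 (-0.43). A pair of regions upstream of the start ran the other way. The region chr2:117108010-117108500 was covered over 491 and 454 bases in DM, 344 and 373 in Npm1c, 357 and 342 in Flt3-ITD, against 397 and 301 in WT. It was wider in DM than in WT (0.78, SE 0.14, adjusted p = 0.00437), under 11 of 12 settings, the exception being widths that were not centred (0.45). The region chr2:117105154-117105955 was wider in DM than in WT (0.58, SE 0.12, adjusted p = 0.00866) except without centring (0.25), DM replicate 2 (0.50) or WT replicate 2 (0.50).

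Spred2 (chr11:19924442-20024026), whose product also restrains RAF activation by RAS, had the most regions. Of 28, DM libraries called 11 and 14, Npm1c libraries 16 and 16, Flt3-ITD libraries 9 and 14, while WT libraries called 26 and 17. WT replicate 1 stood well above the rest. The region chr11:19982175-19983056 inside the gene had no peak in the 4 libraries with the Flt3-ITD allele and was covered over 595 and 619 bases in Npm1c and 704 and 844 in WT. The same pattern was seen at chr11:20031547-20031903 beyond the 3′ end. DM libraries also lacked chr11:19962722-19963229, chr11:19966178-19966668 and chr11:19994276-19994824, which both Npm1c libraries, Flt3-ITD replicate 2 and both WT libraries called. Also absent from DM was chr11:19963430-19963897, which Npm1c replicate 2, Flt3-ITD replicate 2 and both WT libraries called. So was chr11:19955746-19956078, which Npm1c replicate 1 and both WT libraries called. Npm1c libraries alone called chr11:20022681-20022943 and WT libraries alone chr11:20035343-20035817. Both DM libraries called chr11:19943816-19944149 and chr11:19998014-19998381, which neither Npm1c library did.

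At the Spred2 start, chr11:19923747-19927045, the Flt3-ITD allele difference was -0.01 (adjusted p = 0.927). The largest width difference at Spred2 lay deep in the gene. Peaks covered 378 and 428 bases of chr11:19986321-19987637 in DM, 1317 and 1228 in Npm1c, 750 and 771 in Flt3-ITD, against 1165 and 629 in WT. Both DM libraries were below all others, and the share of all regions where this holds was not counted. The region was narrower in DM than in Npm1c (-1.53, SE 0.20, adjusted p = 0.000712) under all 12 settings, and narrower in DM than in WT (-0.76, adjusted p = 0.0192) except without DM replicate 1 (-0.71), DM replicate 2 (-0.82) or WT replicate 1 (-0.43). Its difference of DM from Flt3-ITD (-1.05, adjusted p = 0.0146) passed under 7 of 12 settings, and not without any of the 4 libraries compared (-0.98 to -1.13) or without centring (-0.92). It was wider in Npm1c than in WT (0.77, adjusted p = 0.0445), which passed under 2 of 12 settings. The region chr11:19992375-19994265, with 749 and 812 bases in DM, 1137 and 1397 in Npm1c, 739 and 871 in Flt3-ITD, against 1476 and 1519 in WT, was narrower with than without the Flt3-ITD allele (-0.50, SE 0.10, adjusted p = 0.00378) under all 12. The region chr11:19979216-19979843 was narrower in DM than in Npm1c (-0.65, adjusted p = 0.00961), except without DM replicate 2 (-0.57) or Npm1c replicate 1 (-0.53).

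Sprouty genes encode inducible inhibitors of receptor tyrosine kinase signalling. Spry2 (chr14:105891947-105896819) had 11 regions, with 6 and 6 called in DM, 11 and 10 in Npm1c, 4 and 3 in Flt3-ITD, against 9 and 7 in WT. Every library with the Flt3-ITD allele lay below every library without it, beside the 21.5% of all genes with an unadjusted exact permutation p under 0.05. The regions chr14:105802833-105803266 and chr14:105902849-105903240 were called in none of the 4 libraries with the allele and in all 4 without it. Flt3-ITD libraries alone lacked chr14:105905948-105906321, Npm1c libraries alone called chr14:105893584-105893971, and chr14:105851429-105851881 was called in both Npm1c libraries and WT replicate 1. At the start, chr14:105894652-105899323, peaks covered 3518 and 3213 bases in DM, 4580 and 4672 in Npm1c, 3070 and 2853 in Flt3-ITD, against 4453 and 4343 in WT. Relative to the library median, the Flt3-ITD allele difference there did not pass (-0.22, adjusted p = 0.110). The promoter window shown above was covered over 297 and 232 of its 300 bases in DM, in full in Npm1c, over 201 and 199 in Flt3-ITD and in full in WT.

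At Spry2, a region also set Flt3-ITD apart from DM. Upstream of the gene, chr14:105922439-105923443 was covered over 805 and 733 bases in DM, 899 and 1005 in Npm1c, 263 and 358 in Flt3-ITD, against 937 and 664 in WT. Both Flt3-ITD libraries were below the other 6, and the share of all regions where this holds was not counted. The region was narrower in Flt3-ITD than in WT (-0.90, SE 0.15, adjusted p = 0.0174), except without Flt3-ITD replicate 1 (-0.77) or WT replicate 2 (-1.03). It was wider in DM than in Flt3-ITD (1.19, SE 0.15, adjusted p = 0.00284) and wider across the 4 libraries with the Npm1c allele than across those without it (0.83, SE 0.11, adjusted p = 0.00354), both under all 12 settings. The adjoining chr14:105920999-105921685 was covered over 426 and 490 bases in DM, 639 and 603 in Npm1c, 0 and 0 in Flt3-ITD, against 328 and 0 in WT.

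Spry1 (chr3:37639947-37644599) varied least among the 10 genes, with an SD of its covered bases over the 8 libraries of 0.168 times the mean. Of its 7 regions, DM libraries called 7 and 6, Npm1c libraries 4 and 5, Flt3-ITD libraries 5 and 4, while WT libraries called 6 and 6. DM alone called chr3:37673831-37674181 (273 and 351 bases). The region chr3:37613723-37614049 was called in both DM libraries (236 and 321 bases) and both WT libraries (287 and 246 bases) and in neither single mutant. Downstream of the gene, chr3:37653948-37654922 was covered over 456 and 471 bases in DM, 947 and 715 in Npm1c, 365 and 603 in Flt3-ITD, against 933 and 892 in WT. It was narrower with than without the Flt3-ITD allele (-0.60, SE 0.15, adjusted p = 0.0111) under all 12 settings. The next region, chr3:37659432-37660357, was narrower in DM than in WT (-0.51, adjusted p = 0.0193) and than in Npm1c (-0.49, adjusted p = 0.0178). The first of these did not pass without DM replicate 2 (-0.40) or WT replicate 1 (-0.40), and the second without DM replicate 2 (-0.38) or Npm1c replicate 1 (-0.43).

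Spry4 (chr18:38586247-38601347) had 3 regions. DM libraries called 3 and 3, Npm1c libraries 1 and 1, Flt3-ITD libraries 2 and 2, while WT libraries called 3 and 1. The region chr18:38597096-38597462 inside the gene was covered over 346 and 347 bases in DM and 275 in WT replicate 1, with no peak in the other 5 libraries. The region chr18:38590153-38590648 was covered over 379 and 454 bases in DM, 0 and 0 in Npm1c, 233 and 362 in Flt3-ITD, against 407 and 0 in WT. The Npm1c libraries had peaks at the gene end only.

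ETV5, an ETS factor of the PEA3 group, is encoded by a gene (chr16:22381313-22439570) with 12 regions. Of these, DM libraries called 7 and 10, Npm1c libraries 4 and 4, Flt3-ITD libraries 4 and 5, while WT libraries called 7 and 4. DM alone called chr16:22398826-22399356 inside the gene (389 and 531 bases) and chr16:22358767-22359158 beyond its 3′ end (254 and 392 bases). The region chr16:22431374-22431692 was called in both DM libraries and WT replicate 1, and chr16:22349830-22350180 in both DM and both Flt3-ITD libraries and WT replicate 1. The reverse held inside the gene at chr16:22409923-22410395, with no peak in DM, 304 and 334 bases in Npm1c, 0 and 312 in Flt3-ITD, against 452 and 450 in WT.

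At Etv5 the start region narrowed and its neighbour widened in the same libraries. Peaks covered 1066 and 1159 bases of the start region chr16:22438356-22440791 in DM, 2249 and 1851 in Npm1c, 1364 and 1643 in Flt3-ITD, against 2412 and 2273 in WT. Both DM libraries were below all others, and the share of all regions where this holds was not counted. The region was narrower in DM than in WT (-0.75, SE 0.14, adjusted p = 0.00569) and than in Npm1c (-0.75, SE 0.14, adjusted p = 0.00379), both under all 12 settings, and than in Flt3-ITD (-0.57, adjusted p = 0.0394), under 5 of 12. The last call ended without any of the 4 libraries compared (-0.53 to -0.60). A few kilobases into the gene, chr16:22436010-22436552 was covered over 543 and 445 bases in DM, 214 and 247 in Npm1c, 286 and 327 in Flt3-ITD, against 355 and 202 in WT. It was wider in DM than in WT (1.20, SE 0.20, adjusted p = 0.0035) and than in Npm1c (1.23, SE 0.20, adjusted p = 0.00182), again under all 12.

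The shown promoter windows of Etv5 were reached differently. The upstream window lay under a peak in full in all 8 libraries. The downstream window was covered over 0 and 0 bases in DM, 263 and 199 in Npm1c, 0 and 192 in Flt3-ITD, against 239 and 254 in WT. No peak entered it in either DM library or in Flt3-ITD replicate 1.

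Etv4 (chr11:101769747-101785310), the other PEA3 factor, had few regions, with 1 and 2 of 4 called in DM, 1 and 1 in Npm1c, 1 and 1 in Flt3-ITD, against 2 and 3 in WT. The region chr11:101813285-101813683 was called in WT alone (399 and 231 bases). At the gene end, chr11:101784654-101785796, peaks covered 902 and 767 bases in DM, 597 and 575 in Npm1c, 543 and 863 in Flt3-ITD, against 1143 and 919 in WT. This region was wider in DM than in Npm1c (0.63, SE 0.18, adjusted p = 0.0197), under 8 of 12 settings. The call ended without centring (0.51), DM replicate 1 (0.48), Npm1c replicate 1 (0.70) or Npm1c replicate 2 (0.57).

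**Figure D5:**
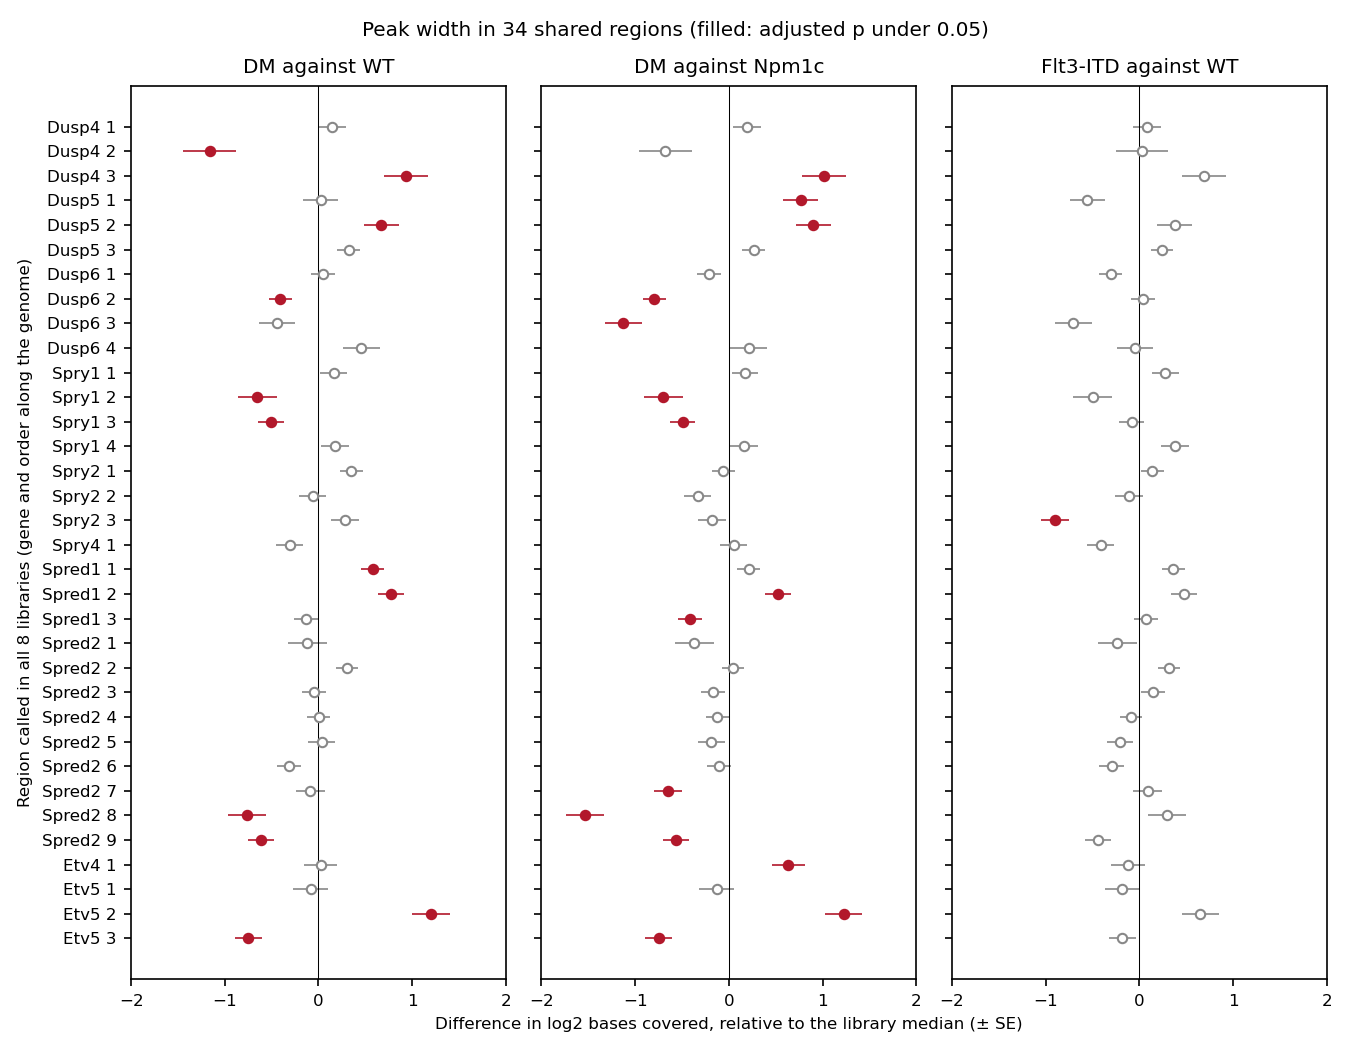
Difference in log2 covered bases relative to the library median (horizontal axis, bars are SE) for the 34 regions called in all 8 libraries, numbered along the genome within each gene, in 3 comparisons. Filled points have an adjusted p under 0.05: 12 in DM against WT, 15 in DM against Npm1c and 1 in Flt3-ITD against WT, on both sides of 0.

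Over the 34 member regions in the width fit, 12 (35.3%) differed between DM and WT, beside 38.0% of all 26169 regions. Of these, 5 were wider in DM (21.5% of all regions were) and 7 narrower (16.5%). Between DM and Npm1c, 15 members (44.1%) differed, beside 44.8% of all regions, with 6 wider in DM (20.5%) and 9 narrower (24.3%). Between DM and Flt3-ITD, 4 members (11.8%) differed, beside 11.9%, with 1 wider in DM (4.26%) and 3 narrower (7.64%). Between Flt3-ITD and WT, 1 member (2.94%) differed, beside 9.66%, with 0 wider in Flt3-ITD (5.41%) and 1 narrower (4.25%). Between Npm1c and WT, 3 members (8.82%) differed, beside 11.9%, with 2 wider in Npm1c (6.9%) and 1 narrower (5.01%). With the Flt3-ITD allele, 6 members were wider (25.7%) and 9 narrower (21.2%) than without it, in all 44.1% beside 47.0%. With the Npm1c allele, 4 were wider (9.66%) and 1 narrower (8.89%), in all 14.7% beside 18.5%. The effect of the Flt3-ITD allele differed with and without the Npm1c allele at 3 members (8.82%, beside 9.73%), upward at 1 (2.56%) and downward at 2 (7.17%). The shares of the members lay near or below those of all regions, and this difference was not tested. Without centring, the median of all regions shifted by -0.27 in DM against WT, -0.14 in DM against Npm1c, -0.34 in Flt3-ITD against WT and -0.25 with the Flt3-ITD allele. The split of the members then became 1 wider and 12 narrower in DM against WT, 2 and 10 in DM against Npm1c, 0 and 15 in Flt3-ITD against WT and 1 and 19 with the allele. Among all 26169 regions, most that passed were likewise narrower. They numbered 946 wider and 8961 narrower, 2809 and 7548, 24 and 7456, and 1655 and 11422 in the same order. Wider and narrower are therefore always relative to the median region, whereas covered bases are given as listed. The DM count against WT was 5 without DM replicate 1, 7 without DM replicate 2 and 6 when WT replicate 2 was left out, and that against Npm1c was 9 without Npm1c replicate 1.

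Smaller differences passed for the alleles. With the Flt3-ITD allele, the Dusp5 start chr19:53528428-53530312 was relatively wider (0.25, adjusted p = 0.037), a direction that turned without centring (-0.04), and Dusp6 chr10:99241749-99242841 was narrower (-0.26, adjusted p = 0.0418). These passed under 3 and 4 of 12 settings. With the Npm1c allele, Spry2 chr14:105886565-105887472 was wider (0.31, adjusted p = 0.0407), under 1 of 12. Dusp5 chr19:53461090-53461889 was covered over 455 and 736 bases in DM, 347 and 399 in Npm1c, 334 and 373 in Flt3-ITD, against 773 and 659 in WT. It was wider in DM than in Npm1c (0.77, adjusted p = 0.0112), except without centring (0.64), DM replicate 2 (0.45) or Npm1c replicate 1 (0.70), and narrower in Npm1c than in WT (-0.74, adjusted p = 0.0396) under 3 of 12.

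Across the 8 libraries, calls were tested for each allele, 4 libraries against 4. By Fisher's exact test, 7 member regions reached an unadjusted two-sided p of 0.0286, the smallest this design allows, for the Flt3-ITD allele, while 8.94% of all regions did. They are the regions at Spred1 (3), Spry2 (2) and Spred2 (2) called only without the allele, a pattern held by 5.47% of member regions and 8.38% of all regions. After adjustment over all 103446 regions none passed (adjusted p = 0.320), nor did any other region (0.0%). Since no p can be smaller than 0.0286, the adjusted threshold can be passed only if most of all regions reach that p. The adjusted test therefore cannot decide about single members. The opposite pattern, a call in all 4 libraries carrying the allele and in no other, was seen at no member (0.566% of all regions). No member reached an unadjusted p under 0.05 for the Npm1c allele (0.36% of all regions), whether called only with it (0.156%) or only without it (0.204%), and none passed adjustment.

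The number of called regions per gene was compared in the same way, with an exact permutation test over 70 relabellings for the 13522 genes with at least 2 regions. Spred1 averaged 4.25 regions with and 11.25 without the Flt3-ITD allele, Spry2 4.75 with and 9.25 without it, and Spred2 12.0 with and 18.75 without it. Each reached an exact permutation p of 0.0286 and an adjusted p of 0.133, and 21.5% of all genes had an unadjusted p under 0.05. The adjusted p of the best member ranged between 0.067 and 0.163 over the alternatives. The Dusp5 mean ran the other way, at 14.25 with and 9.75 without the allele (exact permutation p = 0.229). This mean joined 16 and 20 regions in DM with 9 and 12 in Flt3-ITD, and the Flt3-ITD counts overlapped the 15 and 8 of WT. For the Npm1c allele the smallest member p was 0.114, at Dusp6 (9.5 with and 5.75 without, adjusted p = 1.0), beside 1.36% of genes under 0.05. No member or other gene passed the adjusted threshold for either allele. With 0.0286 as the smallest p, a pass would have needed most genes at that p, so this test cannot decide about single genes either.

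Other genes of the pathway were counted from lists of 32 core RAS-MAPK genes, with 324 regions at 31 of them, and of 18 further MAPK response and feedback genes with 185 regions. In DM against WT the core genes had 25 regions gained (7.72%) and 59 lost (18.2%), and the response genes 14 gained (7.57%) and 30 lost (16.2%), near the genome-wide 6.93% and 20.9%. Against Npm1c, where 12.6% of all regions were gained and 19.3% lost, DM gained 49 core regions (15.1%) and lost 53 (16.4%). Of these gains, 15 lay at Ksr1, the gene of a RAF-MEK scaffold. DM gained 30 response regions (16.2%) against Npm1c, 8 at Ccnd1 (cyclin D1) and 7 at Fos, and lost 28 (15.1%), 7 at Phlda1 and 6 at the phosphatase gene Dusp16. Against Flt3-ITD, DM gained 27 core regions (8.33%) and 16 response regions (8.65%), beside 10.6% of all regions. Both shares were smaller than the 16.4% of the feedback genes, and this difference was not tested. With lists of equal length the feedback genes had 9.68%, beside 6.82% of all regions.

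The 2 members with the largest ratio of SD to mean covered bases over the 8 libraries were Etv4 (0.417) and Dusp5 (0.413). Covered bases at Dusp5 summed to 8334 and 10987 in DM, 3466 and 4994 in Npm1c, 4400 and 5428 in Flt3-ITD, against 8494 and 4578 in WT. Among 7104 genes with at least 5 regions, those most like Dusp5 over the 8 libraries were Klf4 (Pearson r = 0.996), Grk3 (0.993) and Synpo (0.987), and those most like Etv4 were Serinc2 (0.985), Pdcl3 (0.975) and Rtn2 (0.967). All points share list length, and with 8 libraries and so many genes such values describe the pattern and carry no test.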

How the data were processed

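ATAC-seq was done on HSPCs of 4 genotypes, with 8 libraries in all. The series also has 2 neutrophil samples from WT mice, not analysed here. Groups and replicate numbers came from the sample titles. The deposited files are peak lists, 1 per library, made by the authors with Bowtie2 alignment and MACS2 peak calling on mm10, per the submitters' processing notes. No versions, thresholds or read filters, no Tn5 shift of reads and no read depth were given in the sources used. The lists have 3 columns per peak, per the deposited files: chromosome, start and end, with no other unit such as a height or score. No peak was narrower than 200 bp, so the width of a peak has a floor.

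Peaks on chromosomes 1 to 19 and X were merged with 1 bp shared, and regions were assigned by midpoint to genes of a RefSeq table of GRCm38.p6, the matching build, with 21631 genes; exons were not annotated. Coordinates count from 1. All 10 genes were found. The peak width fit used limma 3.58.1 in R 4.3.3 on log2 covered bases of regions called in all 8 libraries, with 4 genotype means and 1 shared spread; the threshold was an adjusted p of 0.05 (Benjamini-Hochberg). Allele contrasts averaged the 2 genotypes with and the 2 without an allele. Calls were tested with Fisher's exact test per region and an exact permutation test per gene in Python 3.11.15 with scipy 1.17.1, all two-sided. The programs were tested on simulated data. All members were described, with every region gained, lost, particular to a genotype or allele, or past the threshold in the width fit; for the 2 most variable members the 3 most similar genes were named. Same-numbered libraries of different genotypes did not deviate together (correlations between -0.0806 and 0.133), so no pairing was used. The alternatives were other merging, calling, assignment and list length rules, other scalings of width, a replicate block and the omission of each library. The members and gene lists were chosen with earlier results of these data known. Some marker genes are not reported here.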

Additional observations from a re-analysis of the deposited data

Results flagged for a closer look

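The effect of the Flt3-ITD allele on peak width differed with and without the Npm1c allele at 3 of the 34 member regions in limma's interaction test, beside 9.73% of all 26169 regions. The interaction is the DM minus Npm1c log2 difference less the Flt3-ITD minus WT one. At Spred2 chr11:19986321-19987637 it was -1.82 (SE 0.29, adjusted p = 0.0106), from a DM minus Npm1c difference of -1.53 and a Flt3-ITD minus WT difference of 0.29. At the Dusp6 start chr10:99260854-99266394 it was -0.83 (SE 0.18, adjusted p = 0.0273), from differences of -0.80 and 0.04. At Dusp5 chr19:53461090-53461889 it was 1.32 (SE 0.27, adjusted p = 0.0229), from differences of 0.77 and -0.55. The Spred2 interaction passed under 11 of 12 alternative settings, those at Dusp6 and Dusp5 under 4 and 5.

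Spry1 chr3:37613723-37614049 was called in 4 libraries, both of DM and both of WT, and in neither single mutant. Each allele thus went with opposite calls in the absence and presence of the other, and the difference was not tested.

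Counts of called regions per gene were examined for single libraries standing apart in 40 groups of 4 libraries, with or without an allele. In 6 groups a library stood apart. The counts are small whole numbers, often tied, and the groups share libraries. The usual chance rate of about 1 in 20 therefore does not apply, and whether 6 exceeds chance cannot be told. WT replicate 1, the longest peak list, stood apart 4 times. It called 10 Dusp6 regions (others without the Npm1c allele 4, 4 and 5), 3 Spry4 regions (others without the Flt3-ITD allele 1, 1 and 1), 26 Spred2 regions (others 16, 16 and 17) and 7 Etv5 regions (others 4, 4 and 4). DM replicate 2 called 2 Etv4 regions against 1, 1 and 1 in the others, both among libraries with the Flt3-ITD allele and among those with the Npm1c allele.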

How the results depend on the processing

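Calls have no depth behind them here, so the length of a list limits every count. With lists of equal length, which left 93 member regions, 7 (7.53%, beside 4.72% of all regions) were gained in Npm1c against WT, 5 gained (5.38%, beside 5.85%) and 3 lost (3.23%, beside 6.49%) in Flt3-ITD against WT, 6 lost (6.45%, beside 15.4%) in DM against WT, 9 lost (9.68%, beside 18.2%) in DM against Npm1c and 9 gained (9.68%, beside 6.82%) in DM against Flt3-ITD. In DM against Npm1c, 17 were gained with these lists (18.3%, beside 16.5%). When a call needed peaks over 50% of the region, 8 were lost in Npm1c against WT (6.25%, beside 7.60%). Under this rule 24 were lost in Flt3-ITD against WT (18.75%, beside 20.42%) and 3 in DM against Flt3-ITD (2.34%, beside 2.62%). With 1 library left out, gained counts ranged over 5 to 10 (Npm1c against WT), 0 to 5 (Flt3-ITD against WT), 9 to 26 (DM against WT), 23 to 36 (DM against Npm1c) and 22 to 36 (DM against Flt3-ITD), and lost counts over 6 to 25, 16 to 39, 19 to 31, 23 to 29 and 1 to 8 in the same order. Leaving out a library loosens the rule, so these counts could only stay or rise. In the same order, gained shares of members were 3.91% to 7.81%, 0% to 3.91%, 7.03% to 20.3%, 17.97% to 28.1% and 17.2% to 28.1%. Gained shares of all regions were 3.36% to 7.49%, 0.8865% to 4.62%, 6.97% to 15.7%, 13.6% to 20.8% and 11.9% to 19.9%. Lost shares of members were 4.69% to 19.5%, 12.5% to 30.5%, 14.8% to 24.2%, 17.97% to 22.7% and 0.781% to 6.25%. Lost shares of all regions were 7.40% to 17.3%, 16.9% to 29.7%, 22.3% to 29.4%, 20.8% to 25.35% and 3.83% to 8.26%. Gained and lost counts moved by no more than 1.5 times when peaks up to 100 bp apart were merged or genes were assigned within 50 kb.

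Of the 58 width differences that passed, 18 passed under every one of 12 settings. Without centring, 33 passed, 23 did not and 2 turned, Spred1 chr2:117105154-117105955 (-0.0089) and Dusp5 chr19:53528428-53530312 (-0.041) with the Flt3-ITD allele. Member counts without centring were 0 for Npm1c against WT, 15 for Flt3-ITD against WT, 1 for DM against Flt3-ITD, 2 for the Npm1c allele and 0 for the interaction. Of all 26169 regions, 294 were higher and 1394 lower, 24 and 7456, 593 and 637, 688 and 1438, and 507 and 200 in the same order. Quantile normalization gave 0 for Npm1c against WT and 1 for the interaction, and regions called in at least 6 libraries gave 0 for Npm1c against WT. With 1 library left out, the counts ranged over 0 to 2 (Npm1c against WT), 0 to 4 (Flt3-ITD against WT), 5 to 12 (DM against WT), 9 to 16 (DM against Npm1c), 1 to 4 (DM against Flt3-ITD), 11 to 15 (Flt3-ITD allele), 1 to 6 (Npm1c allele) and 1 to 6 (interaction), with fewer libraries in each fit. The replicate number as a block, which did not pair the samples, left 53 of the 58 differences past the threshold and 3 for the Npm1c allele. No call passed Fisher's or the permutation test after adjustment under any setting, which the smallest p of so few libraries allows only if most regions or genes reach it. The causes of these shifts were not tested.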
